A study of Mus musculus with 5 samples.

Results

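The S100a genes described here are 8 members of the S100 family, S100a1, S100a4, S100a6, S100a8, S100a9, S100a10, S100a11 and S100a13, out of 52550 genes counted in mouse myeloid progenitors. They were taken by symbol through their gene identifiers, and the set was chosen by the measured difference between genotypes in these same libraries, so the values of that contrast are given for these genes as a description and carry no test. The cells were KL cells, sorted from bone marrow as Lin-cKit+Sca1-, a gate enriched for progenitors committed to the myeloid lineage, and were taken 20 weeks after tamoxifen. The BcorΔE9-10 group (n = 3) carried the genotype scl-Cre-ERT +; Bcorfl/y, in which Cre removes exons 9 and 10 of the X-linked corepressor gene Bcor, and the BcorWT group (n = 2) carried scl-Cre-ERT +; Bcorwt/y. Every animal in both groups was therefore a male with the Cre transgene by its label, and every animal received 1 mg of tamoxifen on each of 5 days at 3 to 6 months of age. Per the study's text, controls were tamoxifen-treated littermates with either transgene alone, which is broader than the labels. Cre was driven by a stem cell enhancer of Scl, and a truncated Bcor protein remains at low level in this model. The labels do not say that each library is 1 animal, so the errors measure the spread between these libraries.

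S100 proteins are small calcium sensors with a pair of EF-hand loops that bind calcium, mostly acting as dimers that open a surface for a partner protein once calcium is bound; S100a10, which no longer binds calcium, is an exception. S100a8 and S100a9 pair to form calprotectin, which is abundant in the cytosol of neutrophils and is made from the myelocyte stage onward. Once released, calprotectin sequesters zinc and manganese from microbes and signals through Tlr4 and Ager (RAGE). The other members act mainly inside the cell, on annexins, myosin and other partners.

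All 8 genes lie on chromosome 3 (mm10). S100a1 (90511034 to 90514392, minus strand) and S100a13 (90514435 to 90524581, plus) stood head to head with 42 bases between them. S100a4 (90603771 to 90606045, plus), S100a6 (90612882 to 90624181, plus), S100a8 (90668978 to 90670035, plus) and S100a9 (90692632 to 90695721, minus) followed. These 6 genes spanned 184.7 kb. S100a11 (93520488 to 93526287, plus) and S100a10 (93555080 to 93564643, plus) formed a separate pair 2824.8 kb beyond S100a9. Of the 30-base words in the last 300 bases of the transcript, where these 3′ libraries read, 41.0% in S100a4 also occurred in the overlapping gene Gm42674, which held 0 counts in each library. In S100a11 36.9% occurred in 7 other genes, among them the pseudogene S100a11-ps, so the counts of S100a4 and S100a11 are uncertain. The other 6 members shared none of these words.

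The promoters of S100a8, S100a9 and S100a6 are shown because these 3 genes had the lowest values in BcorΔE9-10 relative to BcorWT among the members. Each runs from 150 bases before to 30 after the RefSeq start (GRCm38.p6), read 5′ to 3′ in the direction of the gene. Capitals mark TATAAA, the TATA box, and CACGTG, an E-box.
S100a8 promoter, chr3:90668921-90669100, plus strand: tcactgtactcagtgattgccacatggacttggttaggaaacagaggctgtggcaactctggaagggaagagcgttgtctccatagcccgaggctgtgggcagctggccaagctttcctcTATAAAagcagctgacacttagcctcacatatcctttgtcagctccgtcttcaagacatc
S100a9 promoter, chr3:90695692-90695871, minus strand: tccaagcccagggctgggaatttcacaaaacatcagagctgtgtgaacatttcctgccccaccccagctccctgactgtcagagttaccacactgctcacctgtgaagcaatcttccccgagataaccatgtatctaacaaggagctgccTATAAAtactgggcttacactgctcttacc
S100a6 promoter, chr3:90612744-90612923, plus strand: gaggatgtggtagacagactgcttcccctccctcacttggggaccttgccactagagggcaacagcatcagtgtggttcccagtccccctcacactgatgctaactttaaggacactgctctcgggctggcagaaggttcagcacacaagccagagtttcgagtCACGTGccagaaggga

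RefSeq held a promoter for 7 of the 8 members; S100a10 had no entry. In a window of 280 bases, 250 before and 30 after the start, searched on both strands, TATAAA was found in 3 of the 7 promoters and in 13.1% of all 32851 promoters. It lay 30 bases before the start in S100a8, 31 before it in S100a4, and began at the annotated start itself in S100a9. CACGTG, found in 6.8% of all promoters, lay 14 bases after the start in S100a6 and 223 before it in S100a11. GAGGAA, the core bound by the myeloid factor PU.1 (26.0% of all promoters), was matched on the opposite strand 36 and 170 bases before the start of S100a8, the nearer match abutting the TATA box without overlap. It also lay 153 bases before the start of S100a11 and, on the opposite strand, 19 after that of S100a4. TTGCNNAA, a form bound by C/EBP factors (10.4%), was found once, 236 bases before the start of S100a9. CCAAT (36.1%) was found once, on the opposite strand, 228 bases before the start of S100a6. TTCNNNGAA, bound by Stat and Bcl6 factors (7.8%), was found in none of the 7. The same windows held 2 CpG dinucleotides in S100a4 and S100a9, 3 in S100a8 and 5 in S100a6, against 10, 12 and 14 in S100a1, S100a11 and S100a13 and a median of 6.0 over all promoters. A match is a description of letters and not of binding.

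Before the members, the libraries themselves differed in ways that touch them. Total counts ran from 5998924 to 8303999. Kit, which the gate selects, was present at 49.3 to 53.3 CPM (counts scaled to 1e+06 of the TMM-adjusted library total) in BcorΔE9-10 and at 18.1 and 19.5 CPM in BcorWT, and Ly6a, the gene of Sca1, had 3 to 8 counts per library. Itgam and Ly6g, genes of the CD11b and Gr-1 antigens used to deplete mature cells, were still detected. Itgam stood at 119 to 132 CPM in BcorΔE9-10 and at 96.2 and 96.3 CPM in BcorWT. Ly6g went the other way, at 207 to 228 CPM in BcorΔE9-10 and at 569 and 320 CPM in BcorWT. BcorWT 1 stood apart in a list of 10 late neutrophil genes, whose summed level was 3739 CPM there, 1634 CPM in BcorWT 2 and 1494 to 1647 CPM in BcorΔE9-10. In bulk RNA, fewer cells of a type and less RNA per cell cannot be told apart.

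In these progenitor libraries S100a8 was the most abundant of all genes in every library, and S100a9 was among the first 3. The pair was lower in BcorΔE9-10. S100a8 measured 80410, 75116 and 68004 CPM in BcorΔE9-10 and 116998 and 109703 CPM in BcorWT, from 681587, 461181, 582955, 825413 and 741740 counts in the same order. Every BcorΔE9-10 library lay below both BcorWT libraries. The mean was 74510 ± 6225 CPM (SD, n = 3) in BcorΔE9-10 and 113350 ± 5158 CPM (SD, n = 2) in BcorWT, and the fitted log2 fold change was -0.61 (SE 0.071). S100a9 measured 44133, 43156 and 38280 CPM in BcorΔE9-10 and 57537 and 53133 CPM in BcorWT. Its groups did not overlap either, and its log2 fold change was -0.41 (SE 0.072).

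Together the pair held 12.7%, 12.1% and 11.5% of all counts in BcorΔE9-10 and 16.2% and 15.5% in BcorWT. The widest 95% Wilson interval among these, in BcorWT 2, ran from 15.50% to 15.55%, so counting error was small beside the spread between libraries. More than 99% of the counts of the 8 members fell on this pair in each library, from 99.349% in BcorWT 1 to 99.608% in BcorΔE9-10 1. The ratio of S100a8 to S100a9 does not depend on the scaling of the libraries. It was 1.82, 1.74 and 1.78 in BcorΔE9-10 and 2.03 and 2.06 in BcorWT, or 1.78 ± 0.041 (SD, n = 3) against 2.05 ± 0.022 (SD, n = 2). The ratio was thus lower in each BcorΔE9-10 library, which goes with the larger fold change of S100a8.

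**Figure D1:**
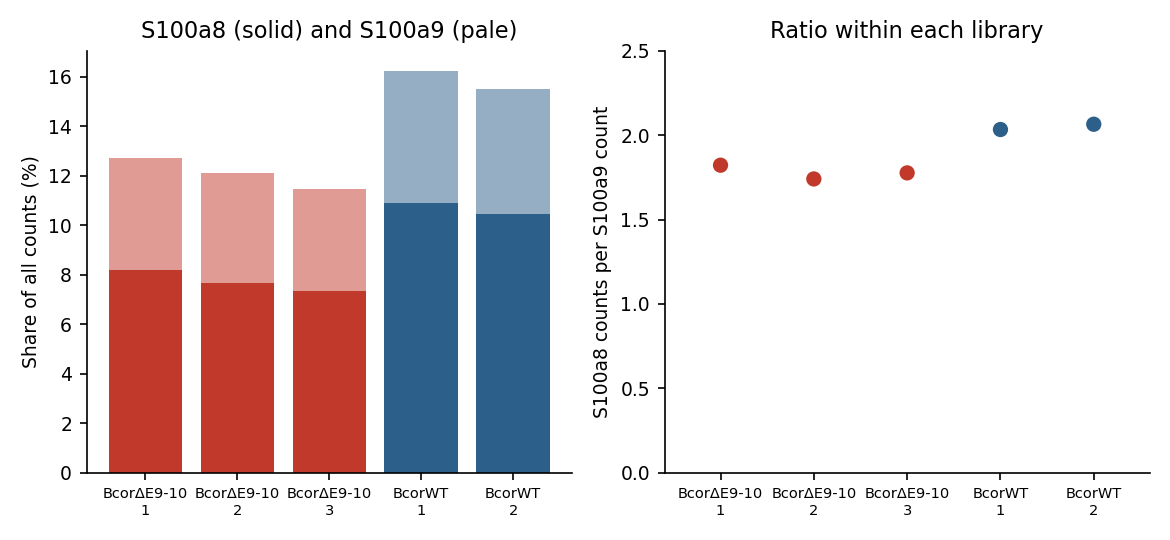
Left, share of all counts (%) held by S100a8 (solid) and S100a9 (pale) in each library; right, S100a8 counts per S100a9 count. Red marks BcorΔE9-10 and blue BcorWT. The stacked shares reach 11.5% to 12.7% in BcorΔE9-10 and 15.5% and 16.2% in BcorWT, and the ratios lie at or below 1.82 in BcorΔE9-10 and at or above 2.03 in BcorWT.

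Because the pair takes so large a share, it can itself shift the scaling. With S100a8 and S100a9 left out of the library totals and the TMM factors, the log2 fold change of S100a8 was -0.61 and that of S100a9 -0.41, as before to 2 decimals. With total counts alone, the median change over all genes moved, on the log2 scale, from 0.004 to 0.149, and the split of genes past an adjusted p of 0.05 from 708 higher and 481 lower to 1210 higher and 197 lower. S100a8 then read -0.46 and S100a9 -0.26. Relative to the median of all genes they lay at -0.61 and -0.41.

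S100a6, the calcyclin gene, whose protein binds Cacybp and annexins, had the largest fold change of the 8 and the widest spread among controls. It measured 173, 192 and 183 CPM in BcorΔE9-10 and 744 and 330 CPM in BcorWT, from 1464, 1179, 1568, 5246 and 2228 counts. The 3 BcorΔE9-10 libraries lay within 1.11-fold of each other and below both controls, while BcorWT 1 was 2.26 times BcorWT 2. The log2 fold change was -1.45 (SE 0.222). It was -0.86 without BcorWT 1 and -2.02 without BcorWT 2, so its size depended on which control was used. Among 3826 tested genes averaging 32 CPM or more, 8 (0.209%), S100a6 included, had a ratio of BcorWT 1 to BcorWT 2 at or above that of S100a6. Of 10 late neutrophil genes 9 were higher in BcorWT 1 than in BcorWT 2, by differing amounts. Among the largest, Mmp8 stood at 803 against 276 CPM and Retnlg, a resistin-like gene of neutrophils, at 828 against 259 CPM. Itgam, on the same list, was level at 96.2 and 96.3 CPM. The part of the late neutrophil genes in the S100a6 difference was not tested.

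The remaining members, whose proteins act mainly inside the cell, were far less abundant and had smaller fold changes. S100a4, which binds non-muscle myosin, measured 22.9, 31.6 and 38.1 CPM in BcorΔE9-10 and 45.8 and 33.7 CPM in BcorWT, with overlapping groups and a log2 fold change of -0.38 (SE 0.205) that ran from -0.60 to -0.17 with a library left out. S100a10 (p11), which binds annexin A2, measured 24.7, 23.5 and 20.8 CPM against 27.8 and 21.7 CPM, also overlapping, at -0.11 (SE 0.186). S100a10 was the member closest to no difference, and its sign turned positive without BcorWT 1 (0.07) and with total counts alone (0.04).

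S100a11, a partner of annexin A1, measured 183, 150 and 187 CPM in BcorΔE9-10 and 218 and 180 CPM in BcorWT, a log2 fold change of -0.19 (SE 0.128). S100a13, which takes part in the release of proteins without a signal peptide, measured 49.2, 76.2 and 48.9 CPM against 68.3 and 66.0 CPM, a log2 fold change of -0.26 (SE 0.172). BcorΔE9-10 2 alone exceeded both controls. S100a1, best known from heart and skeletal muscle, measured 38.1, 33.2 and 39.1 CPM against 40.3 and 44.96 CPM, at -0.20 (SE 0.153). Its groups did not overlap, but the lowest control and the highest BcorΔE9-10 library lay close together. With a library left out, the log2 fold change ran from -0.33 to -0.06 for S100a11, from -0.45 to -0.16 for S100a13 and from -0.29 to -0.12 for S100a1.

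**Figure D2:**
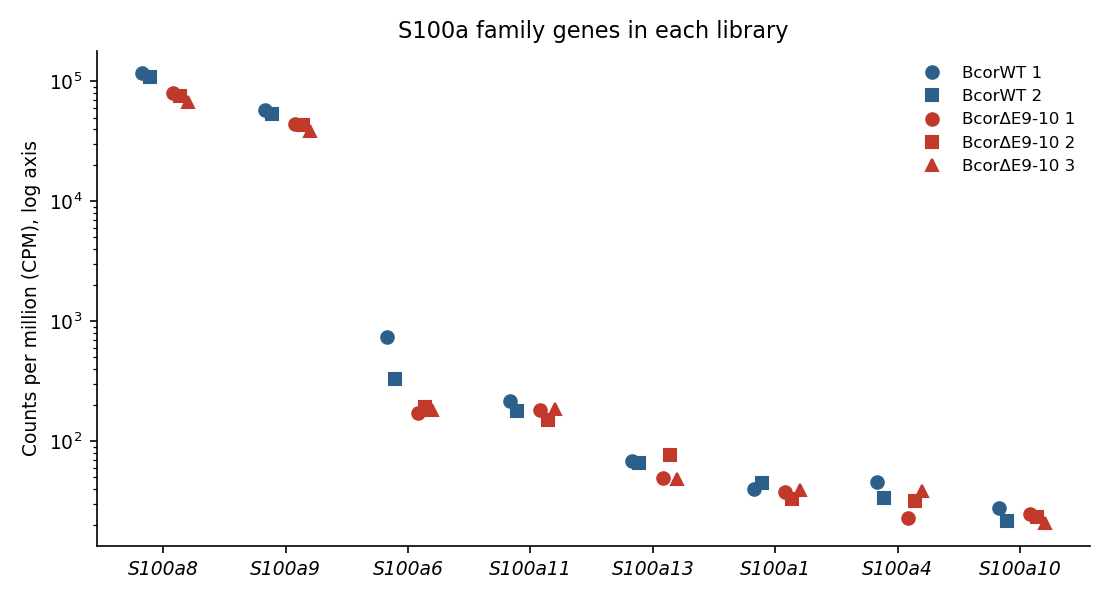
Level of each S100a gene in each library, in CPM on a log axis; blue marks BcorWT and red BcorΔE9-10, with symbols for the replicate. S100a8 and S100a9 lie far above the rest, and S100a6 shows BcorWT 1 (744 CPM) apart from BcorWT 2 (330 CPM) and from BcorΔE9-10 (173 to 192 CPM).

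The log2 fold change was negative for all 8 members (for all but S100a10 with total counts alone), with a median of -0.32 beside 0.004 over all 11766 genes tested. For 4 members (S100a1, S100a6, S100a8 and S100a9) every BcorΔE9-10 library lay below both controls, which held for 20.3% of genes tested. The members were chosen on this contrast, so nothing is read from this count. Over the 17 alternative fits the log2 fold change ran from -2.02 to -0.86 for S100a6, from -0.66 to -0.46 for S100a8 and from -0.46 to -0.26 for S100a9. Of the 8 members 7 were higher in BcorWT 1 than in BcorWT 2, as were 47.7% of all genes tested.

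**Figure D3:**
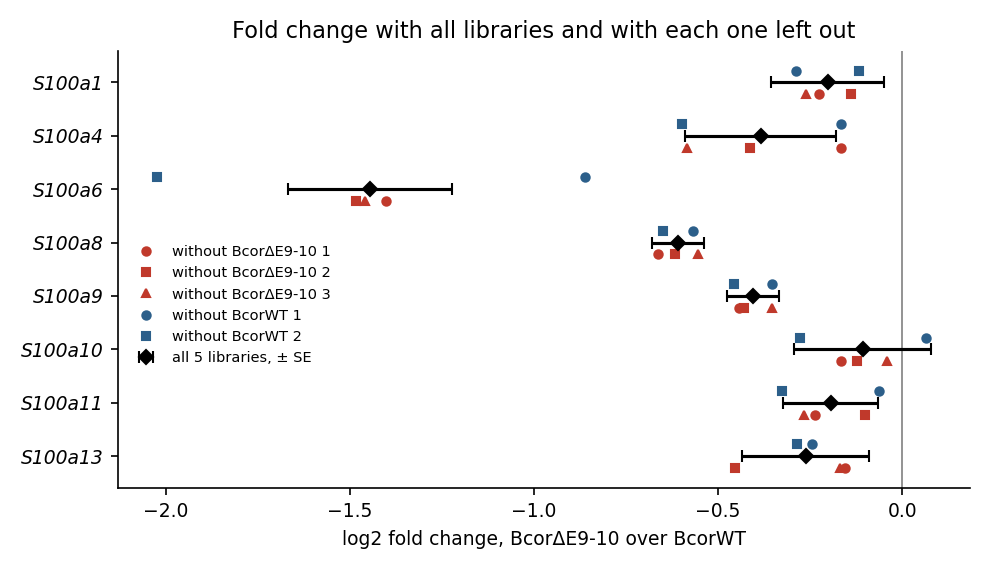
log2 fold change of BcorΔE9-10 over BcorWT for each S100a gene, with all 5 libraries (black diamond, bar ± SE) and with each library left out (red, a BcorΔE9-10 library; blue, a BcorWT library). S100a6 moves from -0.86 to -2.02 with the control left out, S100a8 and S100a9 stay between -0.66 and -0.35, and S100a10 crosses 0.

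Levels of different genes were set beside each other on 2 scales, CPM as counted and CPM divided by exon length. A 3′ library reads transcript ends, so counts do not grow with length and the scale per kb lifts short genes. On either scale S100a8 came first, S100a9 next and S100a10 last in the group means. Per kb, S100a8 ran from 97990 to 115900 CPM in BcorΔE9-10 and S100a9 from 73330 to 84550, without overlap. The order of S100a6 and S100a11 was not resolved. In BcorΔE9-10 their CPM overlapped, while per kb S100a11 (293 to 366) lay above S100a6 (126 to 141). In BcorWT S100a6 was the higher in CPM, while per kb the ranges of S100a11 (353 and 426) and S100a6 (241 and 544) overlapped. S100a13 followed at 68.4 to 107 CPM per kb in BcorΔE9-10 and 92.3 and 95.5 in BcorWT. S100a1 (47.9 to 56.3 in BcorΔE9-10, 58.0 and 64.8 in BcorWT) and S100a4 (39.2 to 65.3, 57.7 and 78.4) overlapped in both groups, in CPM as well as per kb. S100a10 measured 17.1 to 20.3 and 17.9 and 22.9 CPM per kb.

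The genes whose pattern over the 5 libraries was most like S100a8 were sought among 3820 other genes whose log2 CPM averaged 5 or more, by the root mean square difference of log2 CPM centred on each gene's own mean. The nearest were Ccdc97 (0.034), Mcemp1, a membrane protein of mast cells and neutrophils (0.040), Ifrd1, a transcriptional co-regulator active in neutrophils (0.044), Qsox1, which forms disulphide bonds (0.055), and Alox5, the 5-lipoxygenase of leukotriene synthesis (0.065). Mcemp1, for example, measured 252, 250 and 232 CPM in BcorΔE9-10 and 387 and 359 CPM in BcorWT. S100a9 was the 49th nearest gene to S100a8 (0.102). For S100a6 the nearest were Il1rn, the interleukin-1 receptor antagonist (0.193), Prss34, a basophil and mast cell protease (0.249), Ear2, an eosinophil ribonuclease (0.269), Ly6g (0.272) and Mcpt8, a basophil protease (0.285). The distances were larger than for S100a8, and each of the 5 was higher in BcorWT 1 than in BcorWT 2. All were picked for their likeness to S100a8 or S100a6, so their order over the libraries follows largely from that choice. This is a description over 5 libraries.

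**Figure D4:**
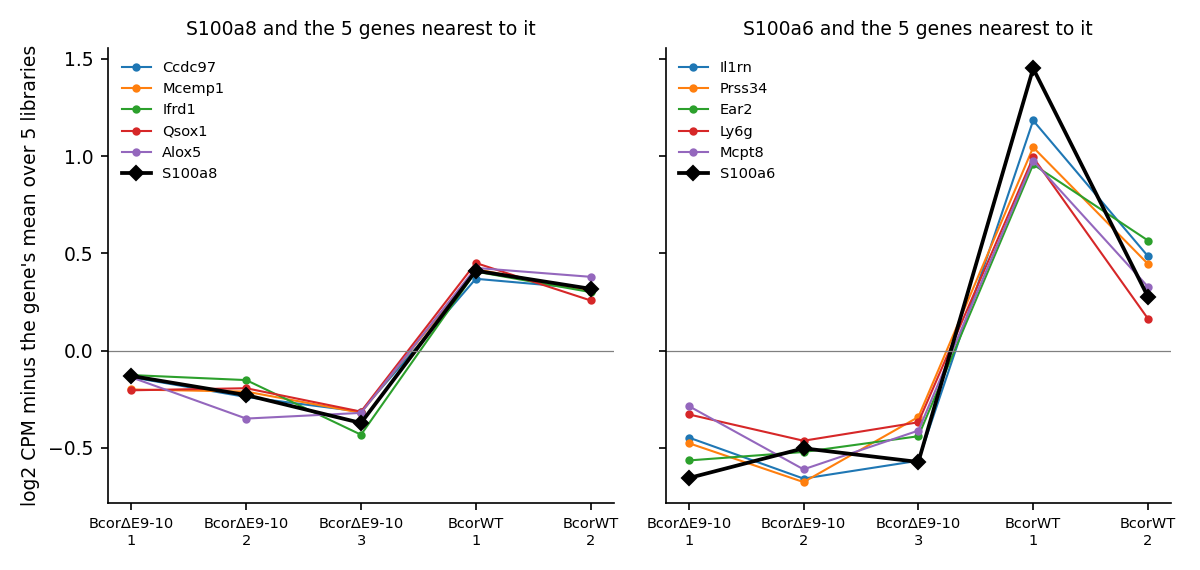
log2 CPM minus the gene's mean over the 5 libraries, for S100a8 (left, black) and S100a6 (right, black) with the 5 genes nearest to each. Each gene of the S100a8 group is lower in every BcorΔE9-10 library than in both BcorWT libraries, and the S100a6 group peaks in BcorWT 1. The genes were picked for likeness to S100a8 or S100a6, so these patterns follow largely from the choice.

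Partners and relatives of the members were tested in the limma fit over all genes. Their values did not choose the members, but these lists were drawn up with earlier results of these data known. The annexins are calcium-dependent membrane-binding proteins, several of which bind an S100 dimer. Of 12 in the list 9 passed the expression filter, 1 rose, 1 fell and 7 did not pass the test, where 6.02% of all genes tested rose, 4.09% fell and 10.1% were called in either direction. The list had a median log2 fold change of -0.22 beside 0.004 over all genes. Anxa1, a partner of S100a11 that restrains inflammation, measured 682, 847 and 731 CPM in BcorΔE9-10 and 193 and 266 CPM in BcorWT. It rose by 1.73 in log2 units (SE 0.133, limma adjusted p = 2.89e-06). Anxa2, the partner of S100a10, measured 379, 315 and 368 CPM against 666 and 519 CPM and fell by 0.73 in log2 units (SE 0.119, limma adjusted p = 0.00113). Both calls held in each of the 17 alternatives. Anxa11, which binds S100a6, measured 36.3, 23.1 and 29.6 CPM against 33.5 and 35.6 CPM and did not pass (log2 fold change -0.22, limma adjusted p = 0.496). Anxa1 and Anxa11 each overlap an antisense gene and Anxa2 overlaps Gm16144 and a microRNA gene, so without the strand setting of the counting their reads cannot be told from those genes. The same holds for Cetn3 and Lcp1, named below, which overlap antisense genes, and Myh9 overlaps Gm22107 on its own strand.

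Of 18 receptors and binding partners 11 were tested, 1 rose, 1 fell and 9 did not pass, with a median of 0.01. Myh9, the non-muscle myosin heavy chain that S100a4 binds, measured 257, 223 and 292 CPM in BcorΔE9-10 and 388 and 348 CPM in BcorWT, and fell by 0.52 in log2 units (SE 0.119, limma adjusted p = 0.0116). The call was lost with total counts alone (limma adjusted p = 0.0591) and without BcorWT 1 (0.0753). Trp53, the p53 gene, whose protein S100a4 and other S100 proteins bind, measured 9.91, 7.49 and 9.45 CPM against 3.69 and 2.37 CPM and rose by 1.58 in log2 units (SE 0.391, limma adjusted p = 0.0173), a call lost without either control (0.0693 and 0.0913). Tlr4, a receptor of released S100a8 and S100a9, measured 8.85, 7.49 and 10.6 CPM against 11.9 and 10.2 CPM (log2 fold change -0.29, limma adjusted p = 0.514). Ager, another, stood at 2.57 to 3.07 CPM in BcorΔE9-10 and at 2.83 and 1.18 CPM in BcorWT (0.57, limma adjusted p = 0.541), and Cacybp, the calcyclin-binding protein gene, at 32.8 to 43.8 CPM against 31.3 and 36.2 CPM (0.10, limma adjusted p = 0.764). Bsg and Emb encode further surface proteins on the list and were named after their values were seen. Both were more abundant, with Bsg at 87.8 to 92.7 CPM against 110 and 99.5 CPM (-0.22, limma adjusted p = 0.270). Emb stood at 93.7 to 106 CPM against 108 and 103 CPM (-0.11, limma adjusted p = 0.624).

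All 23 other EF-hand genes, which encode proteins with EF-hand folds outside the S100 family, were tested. Of these 1 rose, 4 fell and 18 did not pass, with a median of -0.24, beside the same 6.02% and 4.09% of all genes. With total counts alone 3 rose (Cetn3, Rcn1 and Efhd2) and 1 fell (Tesc), where 10.3% of all genes rose and 1.67% fell. Lcp1 (L-plastin, an actin bundler of leukocytes) measured 662, 572 and 697 CPM in BcorΔE9-10 and 986 and 817 CPM in BcorWT and fell by 0.48 (SE 0.109, limma adjusted p = 0.0103). Myl6, a myosin light chain whose EF hands do not bind calcium, fell by 0.38 (limma adjusted p = 0.0152) and Nucb2, nucleobindin 2, by 0.64 (limma adjusted p = 0.0204). Tesc, tescalcin, at 3.42 to 5.83 CPM against 14.03 and 7.69 CPM, fell by 1.21 (limma adjusted p = 0.0338). Cetn3, a centrin of the centrosome, rose by 0.60 (limma adjusted p = 0.0143). The calls of Cetn3, Tesc and Myl6 were lost after correction for GC content (limma adjusted p = 0.571, 0.0542 and 0.0887), those of Lcp1, Myl6 and Nucb2 with total counts alone (0.0515, 0.0834 and 0.0685), and those of all 5 without BcorWT 1, where Tesc read -0.77. Tesc also lost its call without any single BcorΔE9-10 library, Nucb2 without BcorΔE9-10 2 or 3, and Myl6 without BcorΔE9-10 1 or 3. Over the annexins, partners and EF-hand genes 9 of 43 tested genes passed, beside 10.1% of all genes. Without BcorWT 1 the count was 4, beside 4.54% of all genes, Anxa1 and Anxa2 with the EF-hand genes Stim1 and Ppp3r1, the latter pair named after their values were seen.

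**Figure D5:**
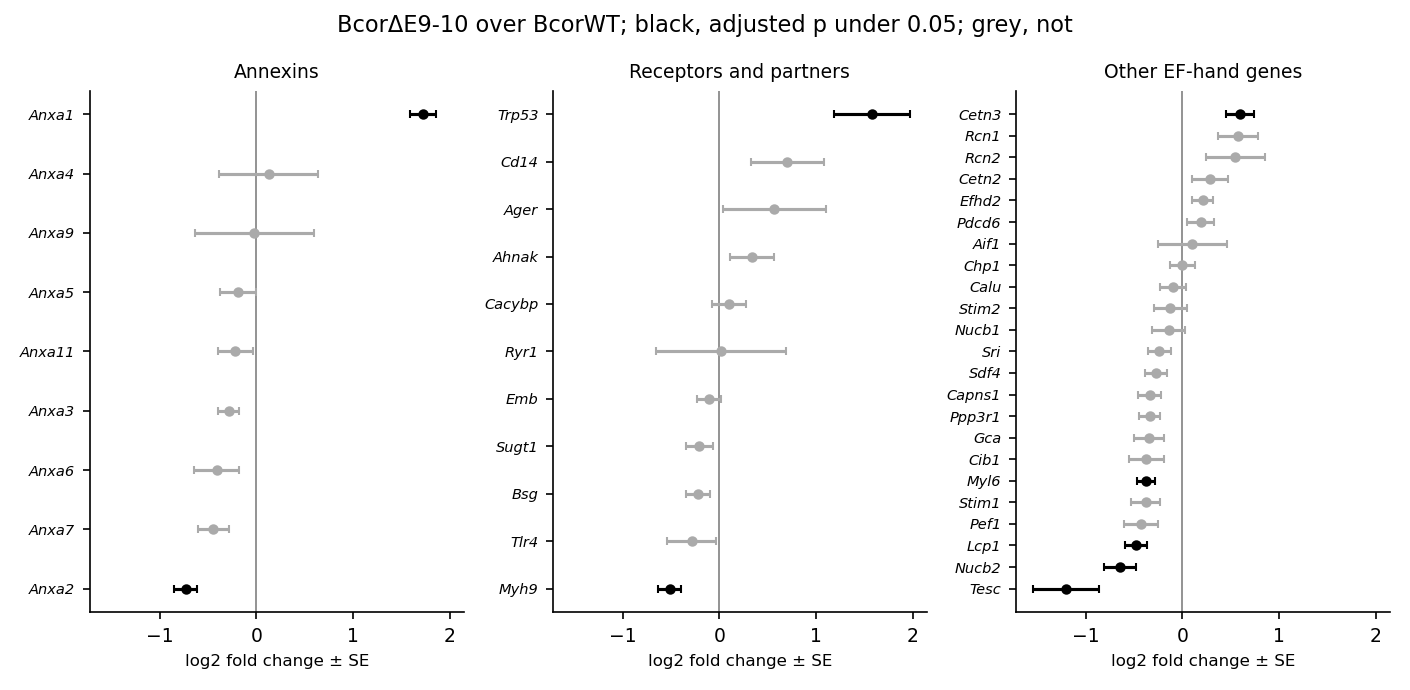
log2 fold change (± SE) of BcorΔE9-10 over BcorWT for the tested annexins, receptors and binding partners, and other EF-hand genes; black, adjusted p under 0.05; grey, not. Anxa1 (1.73), Trp53 (1.58, with a wider error) and Cetn3 (0.60) lie above 0 in black, and Anxa2, Myh9, Lcp1, Myl6, Nucb2 and Tesc lie below 0 in black.

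The other S100 genes were not detected or were close to 0. S100a5, S100a16, S100b, S100g and S100z had 0 counts in each library, and a count of 0 allows up to 3 counts. S100a3 had 0, 2 and 5 counts in BcorΔE9-10 and 8 and 6 in BcorWT, S100a7a 1, 0 and 9 against 9 and 2, and S100a14 1 count in each of 2 libraries. S100a2, which was not on the list and was added after its values were seen, had 9, 4 and 4 counts against 10 and 2. None reached the expression filter, so none was tested in the main fit, and no difference is read from counts this low.

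Genes around the cluster were examined in the same fit. Of 31 genes within 250 kb of its span, 15 had 0 counts and 9 were tested. Of these 1 was called and 8 were not, where 10.1% of all genes tested were called. Their median log2 fold change was 0.07, beside 0.004 over all genes tested. The called gene was Crtc2, a CREB coactivator, with 24, 85 and 59 counts in BcorΔE9-10 and 0 and 1 in BcorWT. Its fitted log2 fold change was 5.60 (SE 1.559, limma adjusted p = 0.0307). The ratio of counts pooled within each group and scaled by library totals was 100 (95% exact interval 17.7 to 3977, counting error only). Weighting the libraries by quality ended the call (limma adjusted p = 0.0539), as did leaving out either control (0.321 and 0.133). Ints3 (log2 fold change -0.46, limma adjusted p = 0.0635) and Chtop (-0.26, limma adjusted p = 0.197) did not pass, nor did Ilf2 (0.28, limma adjusted p = 0.374) and Snapin (0.29, limma adjusted p = 0.386). The log2 fold change was negative for 4 of the 9.

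Some lists of marker genes for maturation stages and other lineages differed between the genotypes and others did not. Their part in the S100a8 and S100a9 values was not tested. Over all genes tested 4.09% fell and 6.02% rose. Of 7 genes on the secondary granule list, a stage at which calprotectin appears, 5 fell. These were Ltf by 0.81, Ngp by 0.68, Cd177 by 0.64, Chil3 by 0.63 and Lcn2 by 0.63 (limma adjusted p from 7.34e-05 to 0.00117). Camp, of the same granule, did not pass (0.25, limma adjusted p = 0.114), nor did Cebpe, which encodes a transcription factor and not a granule protein. The list summed to 43480 to 49600 CPM in BcorΔE9-10 and to 53720 and 55450 CPM in BcorWT. None of the 5 primary granule genes passed in the limma fit, by edgeR or by DESeq2 (1, Ctsg, had an unadjusted p under 0.05), with summed levels of 6826 to 8084 CPM against 7360 and 8190 CPM. Of 10 late neutrophil genes 3 fell (Ly6g, Mmp9 and Clec4d). Among 7 basophil, mast cell and eosinophil genes 5 fell (391.7 to 564 CPM summed against 1269 and 978 CPM). Among 6 tested erythroid genes 1 rose (Car1), though none had a negative log2 fold change and their median was 1.7. The erythroid list of 9 summed to 64.3 to 258.6 CPM against 24.38 and 66.85 CPM. No tested gene of the monocyte (8) and lymphoid (4) lists passed in limma, edgeR or DESeq2, with an unadjusted limma p under 0.05 for 2 (F13a1 and Ccr2) and 1 (Nkg7). They summed to 226 to 295 CPM against 312 and 284 CPM, and to 131 to 170 CPM against 193 and 189 CPM. Without BcorWT 1 (2.25% of all genes lower, 2.29% higher), the 5 secondary granule genes named above still fell, as did Ly6g, the primary granule gene Prtn3 and the basophil and eosinophil genes Prg2, Epx, Mcpt8 and Prss34, and Car1 did not pass. Without BcorWT 2 (4.4% lower, 5.25% higher), 6 of the 10 late neutrophil genes and the monocyte gene Ccr2 fell, and Ctsg, Camp and Hbb-bs rose while Car1 did not pass. With total counts alone Camp, Ctsg, Itgam, Hbb-bs and Hbb-bt were also called higher, and Mmp9 did not pass.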

How the data were processed

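Gene expression was measured by QuantSeq 3′ RNA sequencing in 3 BcorΔE9-10 and 2 BcorWT libraries, grouped by the sample titles. After trimming, the authors aligned reads with HISAT2 (build mm10) and assigned them to genes by featureCounts (Subread 1.5.0-p3, per the labels); the deposited values are raw counts, whole numbers not normalised. Settings for strand and for reads with several alignments are not given in the sources used here. Columns were matched to samples by the sample descriptions, and exon lengths came from the same table. Of 52550 identifiers 52403 were given a symbol.

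Genes were kept with filterByExpr of edgeR 4.0.16 (minimum count 10, minimum total 15), leaving 11766. Libraries were scaled by TMM and tested with limma 3.58.1 on voom values in R 4.3.3, two-sided, with Benjamini-Hochberg adjustment over all genes, as the study's methods name limma. CPM are counts per 1e+06 of the TMM-scaled total. Alternatives were edgeR's quasi-likelihood test, DESeq2 1.42.0, sample quality weights, other scalings and filters, thinned counts, a GC correction, a block for replicate number and fits without each library in turn. Without a control, the lone BcorWT library is assumed to vary like the others. No 2 libraries of a group were alike within counting error (mean chi-square over genes 6.01 to 11.63), and all were kept. Total counts ran from 5998924 to 8303999, and Wilson and exact intervals (95%) cover counting error only.

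The members and lists were chosen with earlier results of these data known. Named were all members and other S100 genes, genes past the threshold in each list (at most 6 by size of change), the partners Anxa1, Anxa2, Anxa11, Cacybp, Myh9, Ager and Tlr4, and the 5 genes nearest in pattern to S100a8 and S100a6 (log2 CPM with 0.5 added). Counts at the 3′ end do not read the deleted exons and so do not show the deletion itself. The level of Bcor was not used here to check the labels.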

Additional observations from a re-analysis of the deposited data

How the results depend on the processing

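The median log2 fold change of the 8 S100a genes (-0.32) stayed negative under each of the 17 alternatives, from -0.42 without BcorΔE9-10 2 to -0.18 with total counts alone. The number of genes called (1189) ranged from 558 without BcorWT 1 to 1200 without BcorWT 2 when 1 library was left out; it was 774 without BcorΔE9-10 2 and 723 without BcorΔE9-10 3. The count over the annexins, partners and EF-hand genes (9) fell to 4 without BcorWT 1. The neighbour count (1) was 0 with sample quality weights, with at least 10 counts in every library, and without either control. Signs turned for genes that were not called: Cacybp read -0.044 after GC correction and from -0.016 to 0.21 with a library left out, and Ager from -0.018 to 1.18 with a library left out. S100a1, S100a8 and S100a9 moved by more than their spread between libraries with total counts alone (-0.06, -0.46 and -0.26).

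Replicate numbers are shared by both groups but mark no stated litter or batch, and the deviations of same-numbered libraries correlated at 0.08 in each of 2 pairs. With 2 controls, the deviations of BcorWT 2 are those of BcorWT 1 with the sign turned, so the 2 correlations are not separate checks. With the replicate block 1454 genes were called, S100a4 read -0.58 (-0.52 with GC correction added), and the median of the members was -0.30. BcorΔE9-10 3 has no BcorWT library of the same number, so it adds nothing to the genotype difference in the block fits. The S100a6 difference rests on 2 controls that differed 2.26 times. Genes under about 10 counts in every library were not tested in the main fit, and no difference is read from them.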
